A study of Homo sapiens with 6 samples.

Results

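Selenoproteins carry selenocysteine, a selenium-containing form of cysteine that is written into a protein at a UGA codon, which in other transcripts is a stop. The genes described here are 30 named members of this system, the selenoproteins and the factors that make and insert selenocysteine, of which 29 are among the 23002 genes in the deposited expression table. They were picked by name, because SELENON had been seen to fall in these same samples while most selenoproteins moved little. All values in the comparison of the groups are therefore a description of the members, and no p-value is given for any of them. DIO3 was not analysed here.

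The data are RNA sequencing of U251, an established human glioblastoma cell line. The sh-NC group (3 samples) carried a lentivirus with a non-targeting short hairpin RNA (shRNA), and the sh-TRAF2 group (3 samples) a lentivirus with an shRNA that lowers TRAF2, an adaptor protein of tumour necrosis factor receptor signalling. Both groups are stable lines, which the methods obtained by puromycin selection, so virus and selection are shared by the controls. Whether a line is a single clone, and which of the TRAF2 hairpins was sequenced, is not given in the sources used here, and p-values measure the spread between these 3 samples a group. The comparison is of transcripts between the sh-TRAF2 and sh-NC groups. Lowering of TRAF2, other effects of the hairpin and other differences between the stable lines cannot be told apart in it.

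Inserting selenocysteine needs its own apparatus. Selenophosphate is made by SEPHS2, a dedicated tRNA is charged with serine, phosphorylated by PSTK and converted by SEPSECS, and the finished tRNA is brought to the ribosome by the elongation factor EEFSEC. A hairpin in the 3′UTR of the message, the SECIS element, recruits SECISBP2 and marks the UGA as selenocysteine. Most selenoproteins are oxidoreductases. In tumour cells GPX4 is best known for removing lipid peroxides and so restraining ferroptosis, the thioredoxin reductases for keeping thioredoxin reduced, and the endoplasmic reticulum members for protein quality control and calcium handling.

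Levels are FPKM, fragments per kilobase of transcript scaled to depth, and can be compared between genes. A log2 fold change is sh-TRAF2 over sh-NC on the log2(FPKM + 0.1) scale from limma, with its standard error (SE), fitted on the 11870 genes that averaged 0.5 FPKM or more. "Rose" and "fell" are used for genes at an adjusted p under 0.05 in that fit. The study's own thresholds were an absolute log2 fold change above 1 and an adjusted p under 0.05. Reads recovered from the FPKM steps ran from 33999095 to 36823131 a sample. TRAF2, the targeted gene, was 15.07 to 18.38 FPKM in sh-NC and 3.221 to 3.327 FPKM in sh-TRAF2, a log2 fold change of -2.27 (SE 0.079, limma adjusted p = 1.16e-06). An exact two-sided permutation test of TRAF2 gave p = 0.1, the smallest that the 20 assignments allow. Of 8 astroglial and glioblastoma markers in the table, 7 had a mean of at least 0.5 FPKM, with VIM, CD44 and EGFR high, GFAP under 2 FPKM in each sample and S100B at 0 in 5 of 6 samples. The summed level of these markers was 1468 to 1547 FPKM in sh-NC and 1806 to 1854 FPKM in sh-TRAF2, mostly VIM, which was 1208 to 1284 and 1557 to 1606 FPKM. NES was also higher in sh-TRAF2, at 4.82 to 5.88 and 11.4 to 11.8 FPKM, while EGFR, at 30.9 to 32.4 and 13.76 to 14.96 FPKM, and CD44, at 186.9 to 191.6 and 176.7 to 182.7 FPKM, were lower. The summed neuronal markers, nearly all TUBB3, were 12.18 to 12.78 and 16.92 to 17.71 FPKM. The summed leukocyte markers, nearly all CD68, were 16.3 to 17.14 and 15.39 to 17.83 FPKM, and the summed endothelial markers, mostly KDR, 3.333 to 3.4 and 3.655 to 4.314 FPKM. PTPRC and PECAM1, which define leukocytes and endothelium, were below 0.01 FPKM in all samples. The part of these markers in the results was not tested, and in bulk RNA fewer cells with a transcript and less of it per cell cannot be told apart.

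SELENON stood apart from every other member. It encodes a glycoprotein of the endoplasmic reticulum membrane that acts on the calcium pump SERCA2, and its loss in people causes a muscle disease. The gene (ENSG00000162430.16) lies at chr1:25800176-25818224 on the plus strand of GRCh38. It read 13.79, 13.19 and 13.64 FPKM in the sh-NC samples and 4.262, 4.445 and 4.849 FPKM in the sh-TRAF2 samples, from 2118, 2036 and 2187 reads and 640, 658 and 734 reads. The groups lay far apart, and the sh-TRAF2 mean was 33.4% of the sh-NC mean. SELENON had a log2 fold change of -1.56 (SE 0.061), the 11th lowest of the 11870 genes. An annotated gene on the same strand and an antisense gene overlap it, and neither was analysed here.

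The reference transcript taken for SELENON holds 2 selenocysteine codons, shown with their neighbouring bases because the codon is what the members share. Values per gene do not show which transcripts were present in these cells. The reference sequence is GENCODE release 29 on GRCh38, read 5′ to 3′ along the message, with the selenocysteine codon TGA in capitals.
SELENON residue 127 (chr1:25802093-25802095, plus strand, exon 3 of 13): ccctggctcaatTGAtcctcctgcctc
SELENON residue 462 (chr1:25812789-25812791, plus strand, exon 10 of 13): gaccagtcctgcTGAggttcagggcgg
TXNRD1 residue 498 (chr12:104348413-104348415, plus strand, exon 15 of 15): caggctggctgcTGAggttaagcccca
TXNRD2 residue 523 (chr22:19877111-19877113, minus strand, exon 17 of 18): gtgacaggctgcTGAgggtaagcgcca
TXNRD3 residue 642 (chr3:126607911-126607913, minus strand, exon 16 of 16): cagaaaggctgcTGAggctag
GPX1 residue 49 (chr3:49358132-49358134, minus strand, exon 1 of 2): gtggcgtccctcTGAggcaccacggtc
GPX4 residue 73 (chr19:1105403-1105405, plus strand, exon 3 of 7): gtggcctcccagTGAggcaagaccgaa
SELENOS residue 188 (chr15:101272777-101272779, minus strand, exon 6 of 7): tcatctggcggaTGAggctaagaatct
SEPHS2 residue 60 (chr16:30445548-30445550, minus strand, exon 1 of 1): ggcatgaagggcTGAggctgcaaggtc
The TXNRD windows end at or just past the end of the coding sequence, since selenocysteine is the last residue but one there. The second SELENON window shares 11 bases with that of TXNRD1, ctgcTGAggtt, the longest such run with any other member window. SELENON fell by 1.56 and TXNRD1 by 0.29 on the log2 scale, and a link between the bases and the changes was not tested. The base after the codon is G at 11 of the 17 codons in the 16 tested selenoproteins, the second SELENON codon among them. It is T at the first SELENON codon and at that of SELENOO, and A or C at the others.

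The position of the codon in the message also varied among members. A UGA read as a stop more than about 55 bases before the last exon junction is a known trigger of nonsense-mediated decay, so the distance was taken for each gene. In the reference transcript taken for SELENON, the codons lie 1221 and 216 bases before the last junction. Of the 16 tested selenoproteins, 8 have their first codon over 55 bases before the last junction, with log2 fold changes from -1.56 (SELENON) to 0.37 (TXNRD2), a median of 0.07 and 4 below 0. The other 8 have it nearer or in the last exon, with log2 fold changes from -0.57 (SEPHS2) to 0.28 (SELENOS), a median of -0.26 and 6 below 0. Without SELENON the first set ran from -0.09 (SELENOW) to 0.37, and the difference between the sets was not tested.

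**Figure D1:**
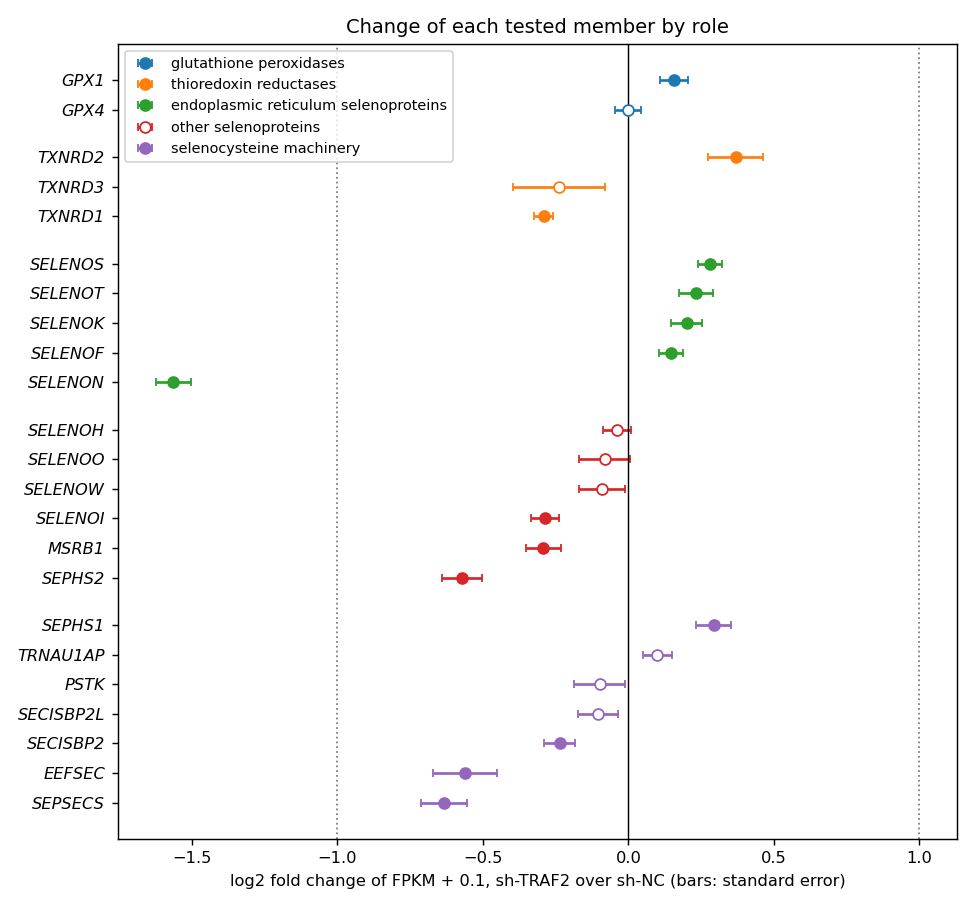
Log2 fold change of FPKM + 0.1 (sh-TRAF2 over sh-NC, horizontal axis) of the 23 tested members, 1 point a gene, with bars for the standard error and colours for the role. Filled points are at an adjusted p under 0.05, and dotted lines mark the study's fold-change threshold of 1 in either direction, which SELENON alone passed, at -1.56.

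Of the 23 members tested, 7 rose, 8 fell and 8 did neither. Over all genes tested, 23.7% rose and 20.9% fell at the same adjusted p, 44.6% in all. Past the study's thresholds there was 1 member lower, SELENON, and 0 higher, beside 0.733% lower and 0.986% higher, 1.72% in all, of the genes tested. Every sh-TRAF2 sample lay above every sh-NC sample for 8 members and below for 8, beside 29% and 26.5% of all genes, 55.5% together. The 16 tested selenoproteins had a median log2 fold change of -0.06, and the 15 without SELENON a median of -0.04, from -0.57 to 0.37. The median over all genes was 0.02. The log2 fold change of SELENON minus the median of the other selenoproteins was -1.53. Because the members were chosen on this contrast, nothing is read from these shares.

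**Figure D2:**
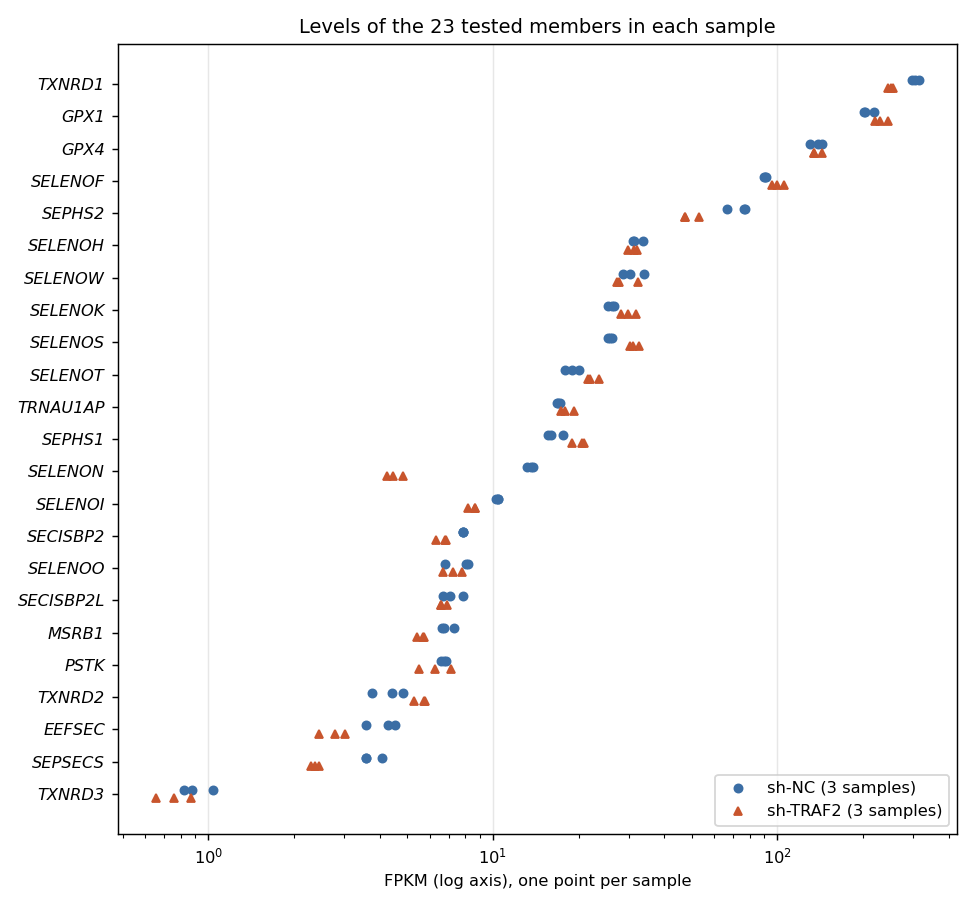
FPKM (log axis) of the 23 tested members in each of the 3 sh-NC samples (circles) and the 3 sh-TRAF2 samples (triangles), ordered by the sh-NC mean. SELENON is 13.19 to 13.79 FPKM in sh-NC and 4.262 to 4.849 FPKM in sh-TRAF2, and no other member lies as far apart between the groups on this axis.

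The transcripts spanned a wide range of levels. In sh-NC the highest were TXNRD1 (mean 305.8 FPKM), GPX1 (207.9) and GPX4 (137.5), then SELENOF (90.5) and SEPHS2 (73.3), and none of these overlapped its neighbour in the order over the 3 samples. TXNRD1, GPX1 and GPX4 together made up 65.0% to 65.9% of the summed selenoprotein FPKM in all 6 samples. That sum was 981.1, 997.4 and 1001 FPKM in sh-NC and 938.8, 960.3 and 938.3 FPKM in sh-TRAF2. SELENOH (31.9) and SELENOW (31.0) overlapped, as did SELENOK (26.1) and SELENOS (25.8). SELENON came thirteenth, between SEPHS1 (16.4) and SELENOI (10.4), and overlapped neither. SECISBP2, SELENOO, SECISBP2L, MSRB1 and PSTK, at 6.72 to 7.85 FPKM, each overlapped the next of these. TXNRD2, EEFSEC and SEPSECS followed at 3.74 to 4.33 FPKM, each overlapping the next, and TXNRD3, best known from testis, was at 0.913 FPKM.

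The glutathione peroxidases use glutathione to reduce peroxides. GPX1, the abundant enzyme for hydrogen peroxide, read 203, 219.3 and 201.5 FPKM in sh-NC and 221.1, 245.4 and 229.6 FPKM in sh-TRAF2. Its log2 fold change was 0.16 (SE 0.048), past the adjusted p threshold by little, since 7 of 15 other settings put it on the other side. GPX4 read 130.1 to 143.3 FPKM and 134.5 to 143.1 FPKM, with overlapping groups and a log2 fold change of -0.0005 (SE 0.045).

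The thioredoxin reductases differed among themselves. TXNRD1, the cytosolic enzyme, fell from 297.5 to 315.1 FPKM in sh-NC to 244.8 to 255 FPKM in sh-TRAF2, a log2 fold change of -0.29 (SE 0.033). TXNRD2, the mitochondrial enzyme and the largest rise among the members, read 4.422, 4.824 and 3.748 FPKM in sh-NC and 5.289, 5.76 and 5.743 FPKM in sh-TRAF2, a log2 fold change of 0.37 (SE 0.094). The groups of neither gene overlapped. TXNRD3 read 0.823 to 1.04 and 0.654 to 0.868 FPKM, with overlapping groups.

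Among the members listed here under the endoplasmic reticulum, SELENON was the exception. The 4 other tested genes of this list all rose, by 0.15 to 0.28 on the log2 scale (median 0.22). Their groups did not overlap. Over all genes tested, 23.7% rose and 29% had every sh-TRAF2 sample above every sh-NC sample. The list need not hold every member of this compartment, and SELENOI, listed with the other selenoproteins, had -0.29. As the members were chosen on this contrast, nothing is read from the count. SELENOS, which helps to pull misfolded proteins out to the ATPase VCP, read 25.89, 25.31 and 26.12 FPKM in sh-NC and 30.35, 31.1 and 32.64 FPKM in sh-TRAF2, with a log2 fold change of 0.28 (SE 0.042). SELENOT, a membrane oxidoreductase, had 0.23 (SE 0.057) and SELENOK, a partner of the palmitoyltransferase ZDHHC6, 0.20 (SE 0.052). SELENOF, a partner of the glucosyltransferase UGGT1 in glycoprotein folding, had 0.15 (SE 0.041), and 2 of 15 other settings no longer called it. SELENOT overlaps SERP1 on the other strand, and as the use of strand in counting is not given, reads of such overlaps cannot be told apart. The annotation names 3 pseudogenes of SELENOK, 2 each of SELENOT and GPX1, and 1 each of MSRB1 and SELENOW, so the reads of these genes are uncertain in part.

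The other selenoproteins fell or did not pass the test. MSRB1, which repairs oxidised methionine, read 6.637 to 7.288 FPKM and 5.401 to 5.714 FPKM, a log2 fold change of -0.29 (SE 0.060). SELENOI, the ethanolaminephosphotransferase of phosphatidylethanolamine synthesis, read 10.29 to 10.44 and 8.172 to 8.657 FPKM, with the same log2 fold change of -0.29 (SE 0.048). SELENOH, a nuclear protein, SELENOO, a mitochondrial enzyme that adds AMP to proteins, and SELENOW, a small cytosolic protein, had log2 fold changes of -0.04, -0.08 and -0.09, with overlapping groups. GPX1, SELENOH, SELENOW and MSRB1 are known as messages that drop first when selenium is short, and here, as a group chosen after the values were seen, they had 0.16, -0.04, -0.09 and -0.29.

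**Figure D3:**
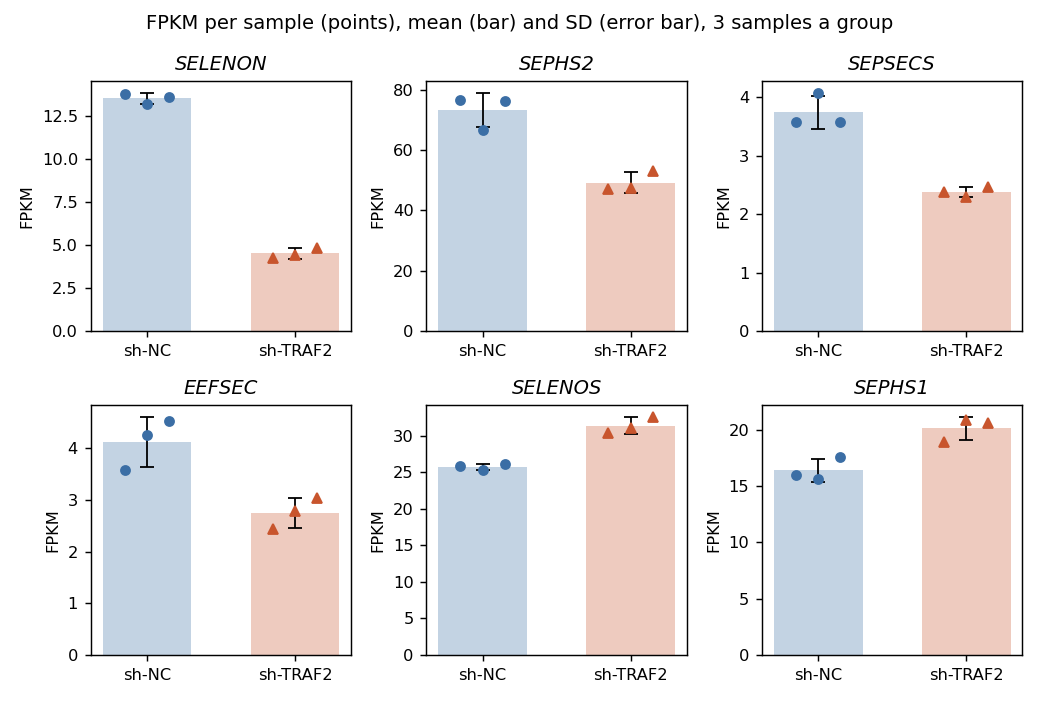
FPKM of SELENON, SEPHS2, SEPSECS, EEFSEC, SELENOS and SEPHS1 in the sh-NC and sh-TRAF2 samples (points), with the group mean (bar) and SD (error bar), 3 samples a group. The groups do not overlap in any panel, and the first 4 genes are lower and the last 2 higher in sh-TRAF2.

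The machinery was led by falls in 3 steps of selenocysteine synthesis and delivery. SEPHS2, the selenophosphate synthetase and itself a selenoprotein, read 76.73, 66.74 and 76.31 FPKM in sh-NC and 47.24, 47.27 and 53.22 FPKM in sh-TRAF2, with a log2 fold change of -0.57 (SE 0.068). SEPSECS, which converts the phosphorylated serine on the tRNA into selenocysteine, read 3.577, 4.069 and 3.577 FPKM and then 2.373, 2.287 and 2.458 FPKM, with -0.63 (SE 0.079). EEFSEC, the elongation factor, read 3.572, 4.264 and 4.522 FPKM and then 2.446, 2.782 and 3.03 FPKM, with -0.56 (SE 0.11). The sh-TRAF2 means of these genes were 67.2%, 63.4% and 66.8% of the sh-NC means, and none of their groups overlapped. EEFSEC overlaps RUVBL1 on the other strand, at a mean of 22.04 FPKM.

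Other parts of the machinery moved less or the other way. SECISBP2, which binds the SECIS element, fell from 7.831 to 7.883 FPKM in sh-NC to 6.3 to 6.859 FPKM in sh-TRAF2, a log2 fold change of -0.24 (SE 0.054). SECISBP2L, its paralogue, had -0.11 (SE 0.069) and PSTK -0.10 (SE 0.088), and neither passed the test. SEPHS1, the paralogue of SEPHS2 that makes no selenophosphate, rose from 16.02, 15.68 and 17.58 FPKM to 18.95, 20.84 and 20.64 FPKM, with 0.29 (SE 0.060). The sister genes therefore moved in opposite directions, although reads shared with pseudogenes, 4 of SEPHS1 and 1 of SEPHS2 by name in the annotation, make the split uncertain. TRNAU1AP, which binds the selenocysteine tRNA, had 0.10 (SE 0.050) and did not pass, though its groups did not overlap. TRNAU1AP overlaps SNHG12, and PSTK overlaps C10orf88 and IKZF5, on the other strand. Over the 8 tested machinery genes 1 rose, 4 fell and 3 did neither, with a median log2 fold change of -0.17. Of all genes tested, 23.7% rose and 20.9% fell, with a median of 0.02. Nothing is read from the machinery count, because the members were chosen on this contrast. The summed FPKM of the machinery, to which SEPHS2 gave the largest share, was 138.4, 129.1 and 141.5 in sh-NC and 106.8, 111.2 and 119.2 in sh-TRAF2.

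The 6 members in the table that were below the filter were listed at low levels in both groups. DIO2, the deiodinase that activates thyroid hormone, rested on 64, 84 and 79 reads in sh-NC and 26, 66 and 61 reads in sh-TRAF2, which overlap. GPX3, the plasma enzyme, had 4, 4 and 11 reads against 1, 1 and 1, which do not overlap. SELENOM had 2, 10 and 2 against 6, 4 and 11, SELENOP, the selenium carrier of plasma, 9, 7 and 3 against 6, 5 and 5, and SCLY, which recycles selenocysteine, 4, 2 and 3 against 6, 5 and 2. GPX2, the intestinal enzyme, was above 0 in a single sh-NC sample. No fold change is given for these 6 genes at so few reads.

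Around SELENON on chromosome 1, 4 genes within 100 kb were tested. These neighbours were looked up after the values were seen. MTFR1L, PAQR7, AUNIP and STMN1 had log2 fold changes of 0.12 (SE 0.10), 0.01 (SE 0.14), -0.19 (SE 0.061) and 0.89 (SE 0.085). STMN1, which destabilises microtubules, rose from 58.3 to 72.5 FPKM in sh-NC to 114.0 to 131.2 FPKM in sh-TRAF2. The TRAF2 hairpin targets listed by the study, printed with the bases of a heptamer in capitals, were compared with the SELENON transcripts.
sh-TRAF2#1: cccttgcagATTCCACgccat
sh-TRAF2#2: ctggaccaagacaagattgaa
Each matches TRAF2 in full and no other gene. The longest run that SELENON shares with either is 8 bases. The heptamer ATTCCAC, bases 10 to 16 of the first target, was chosen from earlier results of these data and searched on the sense strand. It is in the 3′UTR of 1153 of 10826 genes (10.7%) and of 3 of the 23 tested members, MSRB1, SELENOT and SEPSECS, and not in that of SELENON.

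The pathway was followed beyond the members with 64 other genes, of which 50 were tested, 7 rose and 16 fell, where 23.7% and 20.9% of all genes tested did. The lists were made with earlier results of these data known, and genes were named by their values. Their adjusted p-values are therefore a description and no independent test. The 3 further human selenoproteins, DIO1, GPX6 and SELENOV, were not analysed here. Among genes whose product does with cysteine what a selenoprotein does with selenocysteine, 0 of 4 rose and 3 fell. MSRB2, the mitochondrial methionine sulfoxide reductase, read 5.394, 6.055 and 6.288 FPKM in sh-NC and 2.435, 2.616 and 2.573 FPKM in sh-TRAF2, a log2 fold change of -1.18 (SE 0.076, limma adjusted p = 1.73e-05). MSRB3 and MSRA, which have the same kind of function, had -0.35 and -0.18 (limma adjusted p = 0.00571 and 0.0185). All 4 tested methionine sulfoxide reductases, the selenoprotein MSRB1 included, were thus lower in sh-TRAF2.

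**Figure D4:**
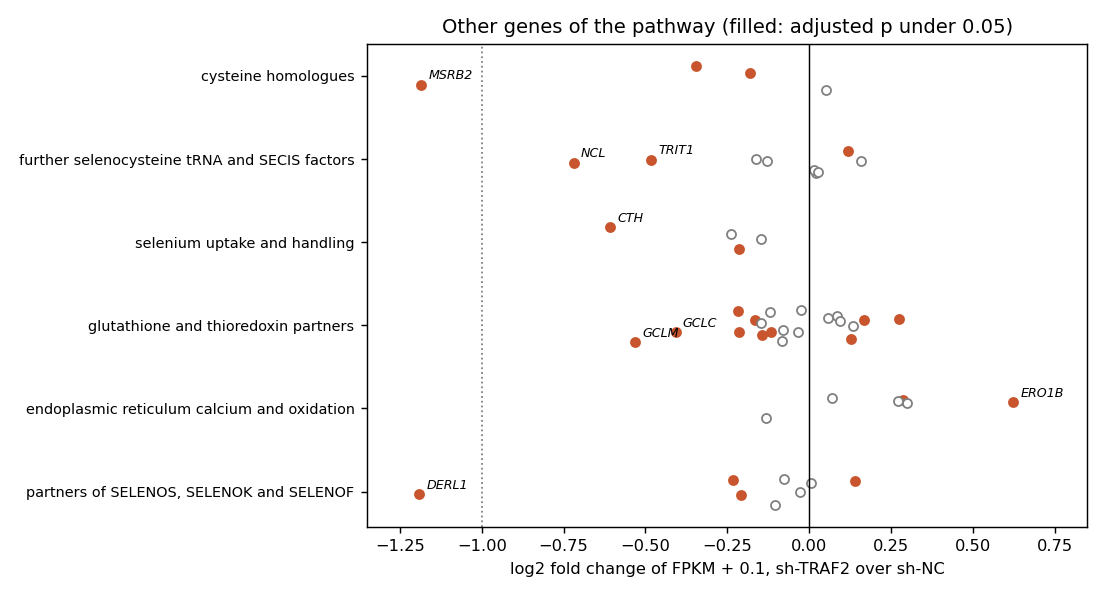
Log2 fold change of FPKM + 0.1 (sh-TRAF2 over sh-NC, horizontal axis) of the tested genes of the 6 other pathway lists, 1 point a gene and 1 row a list, with filled points at an adjusted p under 0.05 and vertical scatter for legibility only. MSRB2 and DERL1 lie past the dotted line at -1, at -1.18 and -1.19.

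Of 9 tested factors of the selenocysteine tRNA and the SECIS element, 1 rose and 2 fell. NCL (nucleolin, which can bind SECIS elements) fell from a mean of 351.3 to 213.4 FPKM, a log2 fold change of -0.72 (SE 0.031, limma adjusted p = 2.74e-06). TRIT1, which adds an isopentenyl group to the tRNA, had -0.48 (limma adjusted p = 0.000156), and EIF4A3, which binds some SECIS elements and keeps SECISBP2 away, 0.12 (limma adjusted p = 0.0254). Of 4 tested genes of selenium uptake and handling, 0 rose and 2 fell. CTH, the cystathionine gamma-lyase that also releases selenide from selenium amino acids, went from a mean of 37.0 to 24.3 FPKM, a log2 fold change of -0.61 (limma adjusted p = 2.67e-05), and the cystine importer SLC7A11 had -0.21 (limma adjusted p = 0.0286).

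Of 20 glutathione and thioredoxin partners, 3 rose and 7 fell. Both subunits of glutamate-cysteine ligase, the first step of glutathione synthesis, fell, GCLM by 0.53 and GCLC by 0.41 on the log2 scale (limma adjusted p = 4.7e-05 and 0.00305). GSS, the second step, rose by 0.28 (limma adjusted p = 0.00104). Of 6 tested genes of endoplasmic reticulum calcium and oxidation, 2 rose and 0 fell. ATP2A2, which encodes the SERCA2 pump that SELENON acts on, read 42.1, 43.46 and 42.95 FPKM in sh-NC and 53.24, 51.1 and 52.63 FPKM in sh-TRAF2, a log2 fold change of 0.29 (SE 0.036, limma adjusted p = 0.000382). The oxidase ERO1B, at a mean of 0.940 FPKM in sh-NC, had 0.62 (SE 0.15, limma adjusted p = 0.009).

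Of 8 tested partners of SELENOS, SELENOK and SELENOF, 1 rose and 3 fell. DERL1, a channel component that binds SELENOS and SELENOK, read 25, 25.72 and 25.83 FPKM in sh-NC and 11.88, 10.61 and 10.9 FPKM in sh-TRAF2, a log2 fold change of -1.19 (SE 0.052, limma adjusted p = 2.97e-06). SEL1L, of the same degradation route, had -0.23 (limma adjusted p = 0.00931) and UGGT1, the partner of SELENOF, -0.21 (limma adjusted p = 0.00442). The gene of this list that rose was VCP, the ATPase that works with SELENOS, named here after its values were seen, with 0.14 (SE 0.036, limma adjusted p = 0.0128).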

How the data were processed

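RNA of 3 sh-NC and 3 sh-TRAF2 U251 samples was extracted with TRIzol and sequenced by OE Biotech. The authors deposited FPKM, a value per gene and sample, and the submitters' processing notes name HISAT2, HTSeq, DESeq2 and R 3.2.0. The genome build, annotation and strand setting are not given in the sources used here. Samples were grouped by their titles.

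The comparison of the groups was a two-sided limma fit (limma 3.58.1 in R 4.3.3, trended eBayes) of log2(FPKM + 0.1), restricted to 11870 genes averaging at least 0.5 FPKM, over which p-values were adjusted by Benjamini-Hochberg. The pseudocount pulls fold changes of low genes towards 0. Whole reads were recovered from the FPKM steps for 20359 genes (88.5%), as the smallest whole numbers that give the values. The fit was tested on simulated data. Members and lists were chosen with earlier results of these data known. Named are the members, TRAF2 and, in each list, up to 3 genes with the largest change at an adjusted p under 0.05 and groups that do not overlap. One result on an overlap between genes is not reported here. Sequences come from GENCODE release 29 (GRCh38) and the hairpin table of the study. Alternatives were other pseudocounts, filters and scalings, eBayes without a trend, limma-voom on the recovered reads, the replicate number as a block, and each sample left out.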

Additional observations from a re-analysis of the deposited data

How the results depend on the processing

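Of 225 comparisons of 15 results with 15 other settings, 213 were called the same, 12 moved and 0 reversed. A count was called the same within a set ratio of the main one, so it could differ. A log2 fold change or median was called the same within the pooled SD of the samples, and TRAF2 by its side of the threshold. Some settings leave fold changes or overlap counts unchanged by construction. With a pseudocount of 1, which shrinks folds by construction, SELENON was at -1.40, its distance from the other selenoproteins at -1.36, and 46 genes were higher and 41 lower past the study's thresholds, in place of 117 and 87. Limma-voom on recovered reads, which tests 14130 genes, gave 239 and 174. Without a filter the machinery median was -0.11, with more genes in it. The other pathway genes that rose were 4 without a trend and 3 with quantile normalization, in place of 7. The cause was not tested. Leaving out each sample gave 4 to 8 such genes (4 without sh-NC replicate 1 or sh-TRAF2 replicate 1) and a selenoprotein median of -0.0996 to -0.0123 (nearest 0 without sh-NC replicate 2). SELENON stayed between -1.61 and -1.52. Of 329 values of single members, 320 kept their side and 9 no longer passed, 7 for GPX1 and 2 for SELENOF, all at most 0.16. Groups of 3 samples and low reads limit what could be seen in the 6 genes under the filter.

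With the replicate number as a block 7 members rose and 8 fell, as without it. In this balanced design a block cannot change a fold change, so SELENON was at -1.56 by construction. Same-numbered samples deviated together by -0.08, 0.07 and 0.07 (correlation across genes). Whether they share more than a number was not tested. Samples 2 and 3 of sh-NC correlated best with their own number in sh-TRAF2, and sample 1 with sample 3.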
